A study of Mus musculus with 16 samples.

Results

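The 8 genes described here encode the transcription factors that read oxidative stress and heme, together with their inhibitor and partners: the cap'n'collar (CNC) activators Nfe2l2 (NRF2) and Nfe2l1 (NRF1), the NRF2 inhibitor Keap1, the repressors Bach1 and Bach2, and the small Maf partners Mafg, Maff and Mafk. They were chosen by name, with every probe whose transcript accession belongs to one of them, which gave 11 probes of the 39429 on the array; all 8 genes were among the 12759 genes tested. Mafg had 3 probes and Bach2 had 2, and the second Bach2 probe was not well above background on any array, so 10 probes carried values. The study measured total RNA of murine stem cell derived macrophages on Agilent arrays read in 2 colours. Each group held 4 arrays, replicates a to d: heme-albumin at 200 µM for 8 h, heme-albumin at 50 µM for 8 h, lipopolysaccharide (LPS, a bacterial cell wall component sensed by macrophages) at 10 ng/mL for 8 h, and a control with no treatment, labelled 0 h. Every sample was in the red channel against untreated macrophages of the same kind in the green channel, and the control arrays carried untreated RNA in both. The labels used here give no strain, sex or clone of the cells, and no group was kept untreated for 8 h, so treatment and time in culture cannot be told apart. As the title states, the study asked whether heme triggers inflammation.

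NRF2 is made continuously and destroyed through KEAP1, which holds it for ubiquitination by a CUL3 ligase; when cysteines of KEAP1 are modified by oxidants or electrophiles, NRF2 escapes and enters the nucleus. There NRF2 pairs with a small Maf protein and binds antioxidant response elements (ARE) beside genes such as heme oxygenase 1. BACH1 pairs with the same small Mafs and represses many of these elements until heme binds it, which releases BACH1 from DNA and leads to its degradation. Much of this control acts on proteins, whereas the arrays measured transcripts only. In macrophages that clear red cells, the balance of NRF2 and BACH1 is known for controlling heme breakdown, ferritin and iron export.

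The promoter windows of the 3 small Maf genes are shown because Mafg was higher with both agents, whereas Maff and Mafk passed the test with LPS alone. Each window runs from 250 bases before to 50 after an annotated start site, is taken from RefSeq on GRCm38.p6 and is printed along the strand of the gene. Capitals mark a match to the ARE core (TGACNNNGC), the AP-1 site (TGACTCA), the cAMP response element (TGACGTCA) or the kappa-B consensus, each searched on both strands. The first letters of an AP-1 match can also begin an ARE core match.
Mafg, chr11:120633498-120633797, minus strand: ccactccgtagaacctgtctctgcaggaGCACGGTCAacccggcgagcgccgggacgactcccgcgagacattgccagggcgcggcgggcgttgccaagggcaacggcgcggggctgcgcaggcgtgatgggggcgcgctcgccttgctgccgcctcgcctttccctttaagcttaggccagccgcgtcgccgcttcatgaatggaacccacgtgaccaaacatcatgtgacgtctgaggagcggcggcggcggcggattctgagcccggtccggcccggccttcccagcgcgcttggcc
Maff start 1, chr15:79346371-79346670, plus strand: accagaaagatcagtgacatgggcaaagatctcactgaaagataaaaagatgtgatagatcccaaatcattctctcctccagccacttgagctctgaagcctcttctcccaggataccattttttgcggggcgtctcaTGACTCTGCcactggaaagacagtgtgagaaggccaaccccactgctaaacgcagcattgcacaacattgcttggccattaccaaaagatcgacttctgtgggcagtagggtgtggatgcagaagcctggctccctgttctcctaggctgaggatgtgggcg
Maff start 2, chr15:79347270-79347569, plus strand: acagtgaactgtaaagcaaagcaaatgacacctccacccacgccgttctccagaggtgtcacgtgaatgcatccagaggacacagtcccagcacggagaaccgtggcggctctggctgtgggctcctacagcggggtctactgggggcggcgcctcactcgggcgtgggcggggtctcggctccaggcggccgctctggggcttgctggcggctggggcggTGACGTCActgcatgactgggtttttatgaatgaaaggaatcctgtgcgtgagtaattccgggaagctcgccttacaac
Maff start 3, chr15:79348152-79348451, plus strand: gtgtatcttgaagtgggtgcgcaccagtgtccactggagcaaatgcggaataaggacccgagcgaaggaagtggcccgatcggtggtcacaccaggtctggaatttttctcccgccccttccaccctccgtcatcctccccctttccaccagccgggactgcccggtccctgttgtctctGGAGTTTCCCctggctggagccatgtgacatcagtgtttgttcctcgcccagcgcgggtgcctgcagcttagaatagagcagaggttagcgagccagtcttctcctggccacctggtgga
Mafk, chr5:139791286-139791585, plus strand: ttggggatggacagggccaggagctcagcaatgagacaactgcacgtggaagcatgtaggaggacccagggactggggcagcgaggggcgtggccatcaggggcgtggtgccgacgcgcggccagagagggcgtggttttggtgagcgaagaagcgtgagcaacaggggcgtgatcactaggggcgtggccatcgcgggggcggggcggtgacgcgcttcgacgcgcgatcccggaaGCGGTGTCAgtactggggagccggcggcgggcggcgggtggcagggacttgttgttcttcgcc

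The Mafg window held an ARE core match at positions -222 to -214 from its start site, and the Mafk window one at -13 to -5. Maff has 3 annotated start sites: the first window held an ARE core match at -112 to -104, the second a cAMP response element at -29 to -22, and the third a kappa-B consensus at -70 to -61. Nfe2l2 (window at chr2:75704614-75704913, minus strand) also held an ARE core match, at -240 to -232. Over the 14 windows of the 8 genes, 4 held an ARE core, against 12.4% of all 32841 windows in the table; 1 held a cAMP response element, against 1.79%, and 1 the kappa-B consensus, against 4.507%. No window of the 8 genes held the AP-1 letters, which 5.204% of all windows did. These matches are letters in a window and were not tested as binding sites.

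Between 49.9% and 59.4% of probes were well above background on each array, and no spot was saturated. Replicates a and b were scanned on one day and c and d on another, replicate a to d each had a slide of its own that held all 4 groups, and each group sat at the same position of every slide, so position and group cannot be told apart. The scanner software marked 8 arrays for evaluation: control a, c and d, LPS a and d, heme-albumin 50 µM d, and heme-albumin 200 µM a and d. The 75th percentile of the red signals was 753 to 844 at heme-albumin 200 µM and 684 to 863 at heme-albumin 50 µM. With LPS it was 1367 to 1773, against 589 to 706 in control. The green untreated channel of the same arrays moved alike, but dye normalisation brings the 2 channels of an array to a like level. That likeness therefore does not show whether the sample or the whole array was brighter. Values are given as log2 of red over green. All 7 macrophage markers with a probe (Csf1r, Adgre1, Itgam, Lyz2, Mertk, Fcgr1 and Cd14) were above background on all 16 arrays. Of these, 2 fell at heme-albumin 200 µM (Fcgr1 by 1.58 and Mertk by 1.04), against 0.98% of all genes called lower. With LPS 3 rose (Fcgr1 by 3.14, Cd14 by 2.66 and Adgre1 by 1.17), against 14% of all genes called higher. Of the neutrophil markers 2 of 6 were tested, and Camp rose with LPS by 2.19 while Elane differed by -0.38. Of the fibroblast markers 2 of 6 were tested: Dcn was above background on 4 LPS arrays and 0 control arrays, and Col1a2 differed with LPS by -0.23. Of 6 embryonic stem cell markers, 3 were above background on all 16 arrays and 2 on none. Of 5 mast cell markers, 1 was above background on all 16 arrays and 3 on none. No marker of these last lists was called in any comparison. The part of these markers in the changes of the 8 genes was not tested. In RNA from whole cultures, fewer cells that carry a transcript and less of it per cell cannot be told apart.

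At heme-albumin 200 µM Bach2 fell, Mafg and Nfe2l1 were higher by less than 2-fold, and the other 5 genes did not pass the test. A gene was called when its adjusted p (limma, Benjamini-Hochberg over all genes) was under 0.05 and its change at least 2-fold; "rose" and "fell" are used for called genes only. Of the 8 genes, 1 was called at heme-albumin 200 µM against control, Bach2, which fell, against 3.03% of all genes called, 2.05% higher and 0.98% lower. With the adjusted p alone, 3 of 8 passed (Mafg and Nfe2l1 higher, Bach2 lower), against 22.8% of all genes, 10.8% higher and 12% lower. The 4 treated arrays did not overlap the 4 control arrays for 5 of the 8 genes (Nfe2l1, Bach2, Mafg, Maff and Mafk), against 34.9% of all genes. The median change of the 8 genes was 0.20 on the log2 scale, against -0.02 for all genes tested.

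At heme-albumin 50 µM none of the 8 genes was called by limma, against 0.368% of all genes (0.29% higher and 0.0784% lower); 2 had an unadjusted p under 0.05, Mafg and Bach2, against 13.6% of all genes, and the unmoderated model called none as well. Mafg alone passed with the adjusted p (3.52% of all genes did), and arrays did not overlap for 2 of 8 genes, Mafg and Bach2, against 18.6% of all genes. The median change of the 8 genes was 0.08, against -0.01 for all genes.

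With LPS 3 genes rose (Nfe2l1, Keap1 and Maff) and 2 fell (Bach1 and Bach2), so 5 of 8 were called, against 30.7% of all genes, 14% higher and 16.7% lower. All 8 passed with the adjusted p, 6 higher and 2 lower, against 78.8% of all genes, 34.5% higher and 44.3% lower, and all 8 had LPS and control arrays that did not overlap, against 70.3% of all genes. The median change of the 8 genes was 0.82, against -0.09 for all genes. The 3 comparisons with control share the same 4 control arrays.

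**Figure D1:**
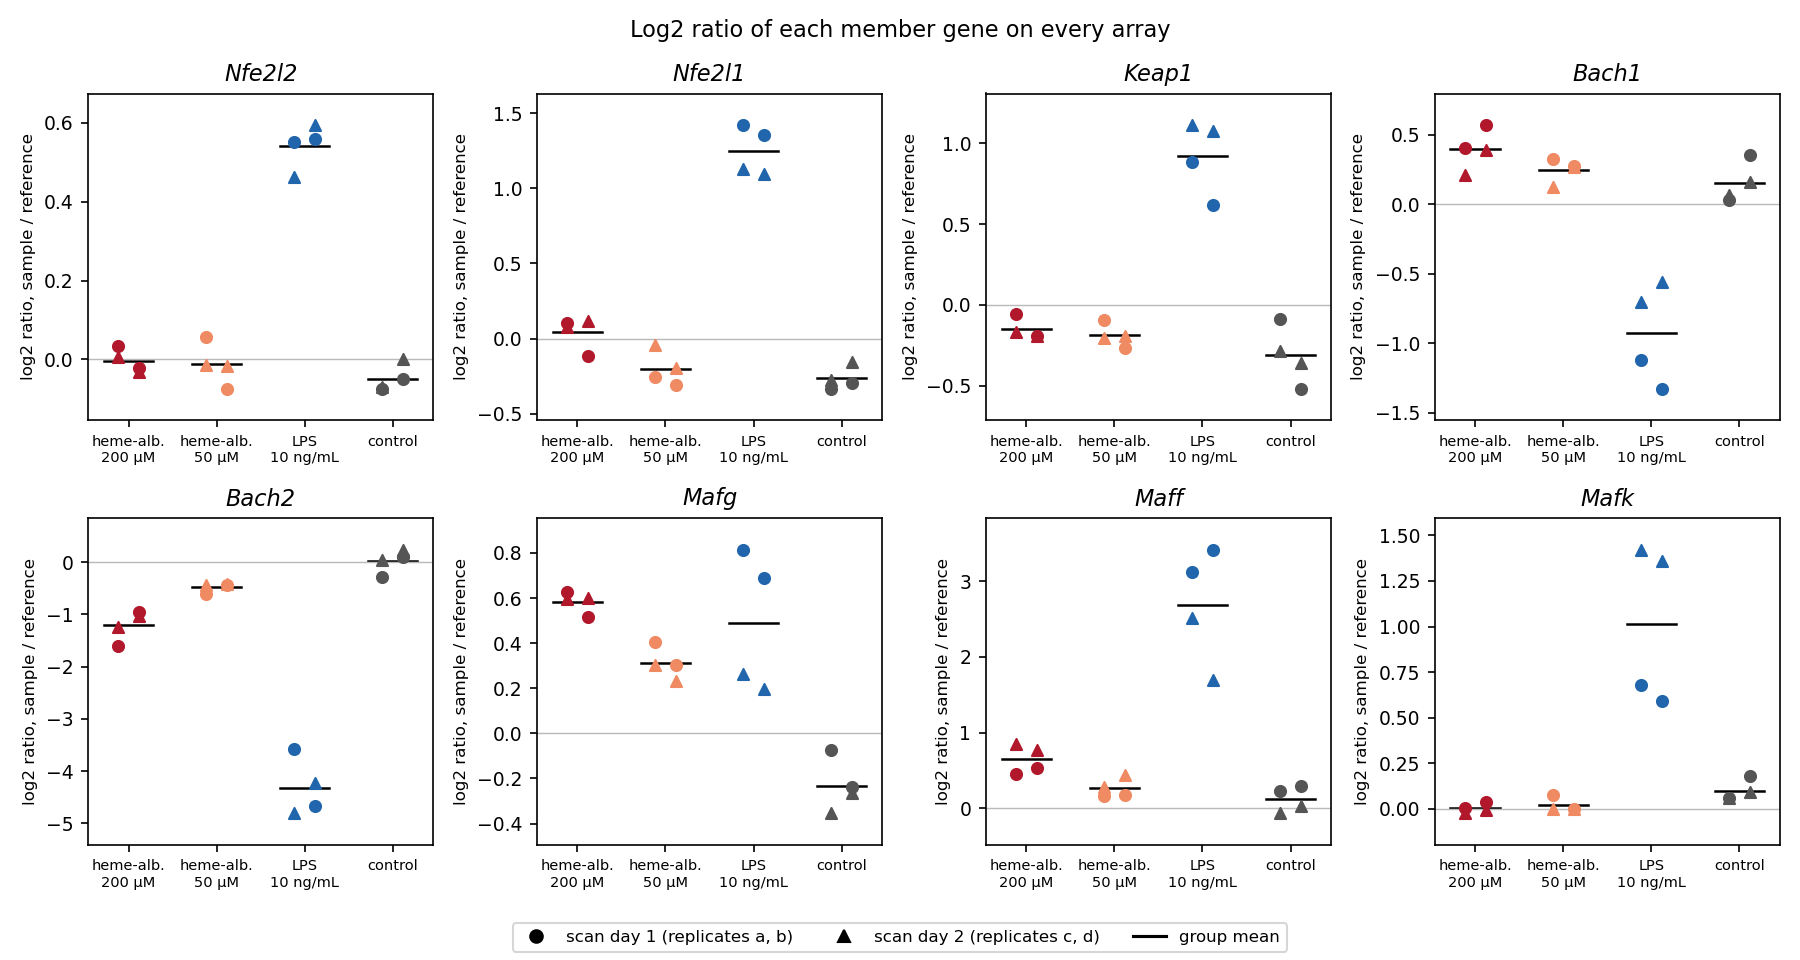
Log2 ratio of red sample over green untreated RNA for each of the 8 genes on every array (y axis, own range in each panel), by group (x axis, 4 arrays each); circles are scan day 1, triangles scan day 2 and lines group means. The LPS arrays lie outside the range of the control arrays in all 8 panels, while the heme-albumin arrays do so for Bach2 and Mafg at both doses.

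Of the CNC factors, Nfe2l2, which encodes NRF2, was not past the threshold with heme-albumin at either dose and was higher with LPS. The log2 ratios were 0.034, -0.021, 0.0067 and -0.033 at heme-albumin 200 µM, 0.056, -0.074, -0.014 and -0.017 at heme-albumin 50 µM and 0.55, 0.56, 0.46 and 0.59 with LPS, against -0.074, -0.050, -0.070 and 0.00029 in control. The LPS arrays stood alone at the top, and the other 3 groups overlapped. LPS was higher than control by 0.59 ± 0.04 (SE, limma adjusted p = 6.3e-09), a 1.51-fold difference that stayed under 2-fold. The heme-albumin 200 µM difference was 0.05 ± 0.04 (limma adjusted p = 0.50), with a 95% interval of -0.045 to 0.14, and that at 50 µM was 0.04, with an interval of -0.054 to 0.13.

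Nfe2l1 encodes NRF1, an endoplasmic reticulum-anchored relative of NRF2 known for driving proteasome genes when the proteasome is impaired. The 4 arrays gave log2 ratios of 0.11, -0.12, 0.080 and 0.12 at heme-albumin 200 µM, -0.26, -0.31, -0.041 and -0.20 at heme-albumin 50 µM and 1.42, 1.36, 1.13 and 1.10 with LPS, against -0.33, -0.30, -0.27 and -0.16 in control. LPS stood far above the other groups, and the heme-albumin 200 µM arrays lay above every control array. Nfe2l1 rose with LPS by 1.52 ± 0.08 (2.86-fold, limma adjusted p = 3.3e-10). At heme-albumin 200 µM it was higher than control by 0.31 ± 0.08 (limma adjusted p = 0.015), a 1.24-fold difference. That pass was lost under 5 of 33 alternatives: with normexp (0.19, limma adjusted p = 0.30), without replicate a, c or d (limma adjusted p = 0.084, 0.074 and 0.051) and on scan day 1 alone (limma adjusted p = 0.051). The difference at 50 µM was 0.07 ± 0.08 (limma adjusted p = 0.85), and the 200 µM and 50 µM groups differed by 0.25 (limma adjusted p = 0.098).

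Keap1, the inhibitor, rose with LPS as well. For Keap1 the log2 ratios were -0.058, -0.19, -0.17 and -0.19 at heme-albumin 200 µM, -0.092, -0.27, -0.20 and -0.19 at heme-albumin 50 µM and 0.89, 0.62, 1.11 and 1.07 with LPS, against -0.089, -0.52, -0.29 and -0.36 in control. Both heme-albumin groups lay inside or just above the spread of the control arrays, which itself was the widest of these 3 groups. The rise with LPS was 1.24 ± 0.10 (2.36-fold, limma adjusted p = 3.8e-08). The differences from control were 0.16 at 200 µM (limma adjusted p = 0.30, 95% interval -0.060 to 0.38) and 0.12 at 50 µM (limma adjusted p = 0.70).

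Of the repressors, Bach1 fell with LPS and was not called with heme-albumin. Its log2 ratios were 0.41, 0.57, 0.21 and 0.39 at heme-albumin 200 µM, 0.33, 0.28, 0.13 and 0.26 at heme-albumin 50 µM and -1.12, -1.33, -0.70 and -0.56 with LPS, against 0.028, 0.35, 0.068 and 0.16 in control. The LPS arrays were all below the other groups, and the heme-albumin arrays overlapped control. Bach1 fell with LPS by 1.08 ± 0.14 on the log2 scale (limma adjusted p = 5.0e-06), just past 2-fold, and its 2 arrays of scan day 2 gave a smaller fall than its 2 of day 1. The call was lost under 6 of 33 alternatives: without replicate b (-0.88), without LPS replicate b alone (-0.95), on scan day 2 alone (-0.74), with normexp (-0.89), and without background subtraction or in the red channel alone (-0.88 in both). The difference at heme-albumin 200 µM was 0.24 ± 0.14 (limma adjusted p = 0.25, 95% interval -0.058 to 0.54). Set against LPS directly, Bach1 was higher at heme-albumin 200 µM by 1.32 ± 0.14 (2.50-fold, limma adjusted p = 5.6e-07) and at 50 µM by 1.18 (2.26-fold, limma adjusted p = 2.0e-06), both called.

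Bach2, a repressor of the same family best known in B cells and T cells, fell with LPS and at the higher dose of heme-albumin, on a dim probe. Log2 ratios of Bach2 were -1.61, -0.96, -1.24 and -1.03 at heme-albumin 200 µM, -0.61, -0.43, -0.44 and -0.42 at heme-albumin 50 µM and -3.58, -4.67, -4.80 and -4.22 with LPS, against -0.28, 0.098, 0.040 and 0.24 in control. No 2 groups overlapped, and the order was control, 50 µM, 200 µM and LPS from high to low. Its red signal was well above background on 3 arrays at heme-albumin 200 µM (not replicate a), on 4 at heme-albumin 50 µM and on none with LPS, against 4 in control, while the green untreated channel was above background on all 16. Bach2 fell at heme-albumin 200 µM by 1.23 ± 0.22 on the log2 scale (2.35-fold, limma adjusted p = 0.00088). At 50 µM the difference was -0.50 ± 0.22 (limma adjusted p = 0.33), and 200 µM against 50 µM gave -0.73 ± 0.22 (limma adjusted p = 0.058), so these neighbours in the order did not differ past the threshold. The probe was kept because of the control and 50 µM arrays alone. With LPS no array measured Bach2 above background, and the fitted difference from control was -4.34 ± 0.22 (limma adjusted p = 1.1e-10). That fit uses LPS values below background, so its fold is not read as measured. A second estimate, to which that p does not belong, was 6.49-fold lower than control. It sets the mean red signal in control against a floor, the lowest signal well above background among kept probes on each LPS array. Signals were taken after the deposited dye normalisation and scaling of mean brightness between arrays. The floor comes from the dimmest such probe rather than from Bach2, so the fold is not a firm lower limit. Both signals are red, and dyes were not swapped. Against LPS set at the same floor, Bach2 was 2.71-fold higher at heme-albumin 200 µM and 4.53-fold higher at 50 µM. These folds hold for the deposited background subtraction only. With normexp the fitted difference of LPS from control was -1.24 (2.37-fold) and with no subtraction -1.35 (2.54-fold), both called. Against LPS, Bach2 was then 1.97-fold (normexp) and 1.66-fold (no subtraction) higher at 200 µM, and 1.97-fold and 2.07-fold higher at 50 µM.

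The fall of Bach2 at heme-albumin 200 µM depended on how background was removed from this dim probe. With normexp background correction the difference was -0.26 (limma adjusted p = 0.16), and with no background subtraction it was -0.61 (limma adjusted p = 2.4e-06), under 2-fold in both. Scan day 1 alone gave -1.19 (limma adjusted p = 0.083) and scan day 2 alone -1.27 (limma adjusted p = 0.0062). Of the B cell markers, Cd79a and Ms4a1 were above background on no array, Pax5 on 1 of 16, and Cd79b and Blnk on all 16. Cd79b, which encodes a B cell receptor chain, was 0.18 at heme-albumin 200 µM and -2.13 with LPS as a log2 difference from control, and Blnk, an adaptor of the same receptor, was -0.96 and 0.44, with 1 control array of Blnk left out as an outlier spot; the part of other cells in the Bach2 values was not tested.

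**Figure D2:**
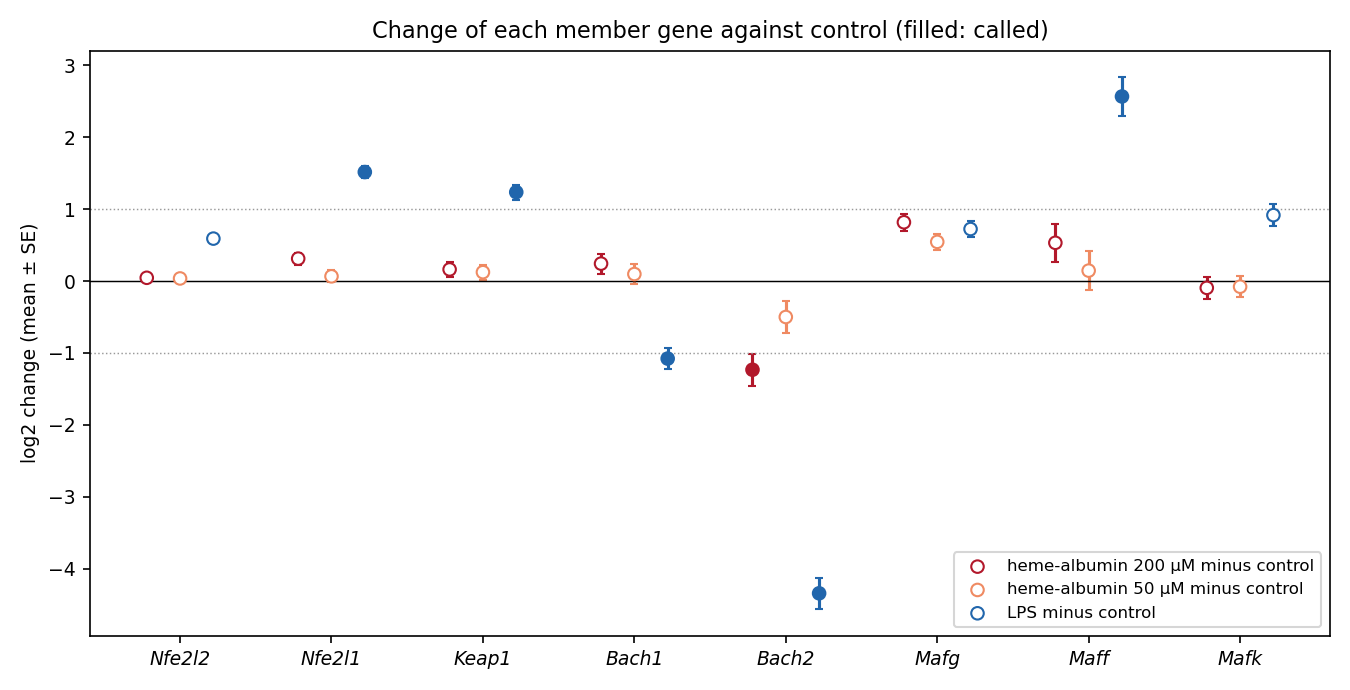
Log2 change of each gene against control (points, with SE bars), for heme-albumin 200 µM, heme-albumin 50 µM and LPS; filled points passed the adjusted p and the 2-fold threshold (dotted lines). With LPS 5 points are filled, and at heme-albumin 200 µM Bach2 alone. The LPS point of Bach2 is a fitted value on a probe not above background, for which the text gives a second estimate.

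Among the small Mafs, which lack a transactivation domain and act as partners of the CNC and BACH factors, Mafg was higher with LPS and with both doses of heme-albumin. The log2 ratios of its brightest probe were 0.63, 0.52, 0.59 and 0.60 at heme-albumin 200 µM, 0.41, 0.31, 0.30 and 0.23 at heme-albumin 50 µM and 0.81, 0.69, 0.26 and 0.20 with LPS, against -0.073, -0.24, -0.35 and -0.27 in control. Every treated array lay above every control array, the 2 heme-albumin doses did not overlap, and the LPS arrays spread across both. Mafg was higher than control by 0.82 ± 0.11 at heme-albumin 200 µM (1.76-fold, limma adjusted p = 0.00011), by 0.55 ± 0.11 at 50 µM (1.46-fold, limma adjusted p = 0.015) and by 0.72 ± 0.11 with LPS (1.65-fold, limma adjusted p = 3.7e-05). None of these reached 2-fold. The pass at 50 µM was lost under 6 of 33 alternatives: in the red channel alone (0.43, limma adjusted p = 0.69), without replicate b, c or d (limma adjusted p = 0.12, 0.13 and 0.073), and without control replicate c or heme-albumin 50 µM replicate a alone (limma adjusted p = 0.057 and 0.052). The 2 heme-albumin doses differed by 0.27 (limma adjusted p = 0.19). Scatter among the LPS arrays widens the SE, which all groups share. For Mafg the standard deviation was 0.31 with LPS, against 0.047 at 200 µM, 0.072 at 50 µM and 0.12 in control. Heme-albumin 200 µM and LPS differed by 0.09 ± 0.11 (limma adjusted p = 0.46, 95% interval -0.15 to 0.34). The scan days were opposed in this last comparison, at -0.18 on day 1 (limma adjusted p = 0.10) and 0.37 on day 2 (limma adjusted p = 0.0010), and the difference between days was 0.55 (limma adjusted p = 0.0026). At 50 µM Mafg was below LPS by 0.18 (difference -0.18, limma adjusted p = 0.17), which passed under 5 of 33 alternatives.

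The other 2 Mafg probes were also above control with each treatment. Fitted over all 21458 probes, they were higher at heme-albumin 200 µM by 0.69 (limma adjusted p = 1.9e-05) and 0.70 (limma adjusted p = 1.7e-05), at 50 µM by 0.42 (limma adjusted p = 0.0070) and 0.46 (limma adjusted p = 0.0041), and with LPS by 0.84 and 0.81. Between the 2 doses of heme-albumin they differed by 0.26 (limma adjusted p = 0.066) and 0.24 (limma adjusted p = 0.094), neither past the threshold. They disagreed with the brightest probe on the order of heme-albumin 200 µM and LPS, with differences of -0.15 (limma adjusted p = 0.092) and -0.11 (limma adjusted p = 0.23). At 50 µM against LPS both passed, with differences of -0.41 (limma adjusted p = 0.00021) and -0.35 (limma adjusted p = 0.00093), where the brightest probe did not.

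Maff had the largest rise of the 8 genes with LPS. The Maff log2 ratios were 0.46, 0.53, 0.85 and 0.77 at heme-albumin 200 µM, 0.16, 0.17, 0.28 and 0.45 at heme-albumin 50 µM and 3.12, 3.42, 2.52 and 1.69 with LPS, against 0.23, 0.29, -0.064 and 0.026 in control. All LPS arrays stood above all others, and the heme-albumin 200 µM arrays lay above control without overlap. Maff rose with LPS by 2.57 ± 0.27 (5.93-fold, limma adjusted p = 4.2e-07). The difference at heme-albumin 200 µM, 0.53 ± 0.27, did not pass (limma adjusted p = 0.18, 95% interval -0.038 to 1.10), nor did that at 50 µM, 0.15 ± 0.27 (limma adjusted p = 0.91). The SE is shared by all groups, so scatter among the LPS arrays widens these intervals. Maff had a standard deviation of 0.76 with LPS, against 0.19 at 200 µM, 0.13 at 50 µM and 0.17 in control. Without LPS replicate d the same 0.53 at 200 µM passed (limma adjusted p = 0.027). Heme-albumin 200 µM was below LPS by 4.10-fold (limma adjusted p = 5.3e-06).

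Mafk did not pass the threshold with heme-albumin at either dose. Its log2 ratios were 0.0049, 0.036, -0.024 and -0.0086 at heme-albumin 200 µM, 0.075, -0.0031, 0.0011 and 0.00012 at heme-albumin 50 µM and 0.68, 0.59, 1.42 and 1.36 with LPS, against 0.060, 0.18, 0.058 and 0.093 in control. The heme-albumin 200 µM arrays were all slightly below control, and the LPS arrays split into a lower pair (a and b) and a higher pair (c and d). The difference at heme-albumin 200 µM was -0.09 ± 0.15 (limma adjusted p = 0.71, 95% interval -0.41 to 0.22), and that at 50 µM was -0.08 ± 0.15 (limma adjusted p = 0.91). The SE is shared by all groups, so scatter among the LPS arrays widens these intervals. Mafk had a standard deviation of 0.44 with LPS, against 0.026 at 200 µM, 0.038 at 50 µM and 0.056 in control. With LPS it was higher by 0.92 ± 0.15 (1.89-fold, limma adjusted p = 4.5e-05), short of the call; without replicate a the value was 1.02 and without replicate b 1.08, both called, as were those without LPS replicate a alone (1.03) and LPS replicate b alone (1.06).

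The heme-albumin groups were also compared with each other and with LPS. Between heme-albumin 200 µM and 50 µM none of the 8 genes was called by limma, against 0.831% of all genes (0.635% higher and 0.196% lower), and none passed with the adjusted p, against 7.61%. At an unadjusted p under 0.05, 3 of 8 genes passed, Nfe2l1, Bach2 and Mafg, against 19.9% of all genes, and the unmoderated model called none. Arrays of the 2 doses did not overlap for 3 genes, Bach2, Mafg and Maff, against 20.9% of all genes. At heme-albumin 200 µM against LPS, 6 of 8 were called, against 30.3% of all genes: Bach1 and Bach2 higher (16.8% of all genes were), and Nfe2l1, Keap1, Maff and Mafk lower (13.6%). Nfe2l2 passed with the adjusted p alone, which made 7 of 8 against 79.3% of all genes, and the arrays of all but Mafg did not overlap, against 68.6% of all genes. Of these, Mafk was just past 2-fold at 2.02-fold, and lost the call without replicate c (-0.87) or d (-0.89) and without LPS replicate c (-0.88) or d (-0.90) alone. At heme-albumin 50 µM against LPS, 5 of 8 were called, against 30.6% of all genes (16.7% higher and 13.9% lower), 7 of 8 passed with the adjusted p, against 79.2%, and arrays did not overlap for 7 of 8, against 70.6%. Here Bach1 and Bach2 were higher and Nfe2l1, Keap1 and Maff lower, with Mafk at 1.99-fold the one that fell short; leaving out replicate a (-1.13) or b (-1.13), LPS replicate a (-1.11) or b (-1.14), or heme-albumin 50 µM replicate a (-1.01), made it a call.

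For LPS, the size of the change differed between scan days for 5 of the 8 genes. The term for group and scan day, fitted over all genes and added after the data were seen, passed (limma adjusted p under 0.05) for Nfe2l1, Bach1, Mafg, Maff and Mafk, against 33.6% of all genes. From day 1 to day 2, the LPS change of Mafk was larger by 0.80 (limma adjusted p = 5.2e-05), at 0.52 on day 1 and 1.32 on day 2. That of Bach1 moved by 0.67 (limma adjusted p = 0.011), at -1.41 on day 1 and -0.74 on day 2. The rises of the others were smaller on day 2: Maff 3.01 and 2.13 (limma adjusted p of the difference = 0.038), Nfe2l1 1.70 and 1.33 (limma adjusted p = 0.023), and Mafg 0.91 and 0.54 (limma adjusted p = 0.020). Every gene kept its direction on both days, and the scan day is also a split by replicate letter, so scan, slide and culture cannot be told apart here. For heme-albumin at either dose against control, none of the 8 genes passed this limma test, against 0.00784% of all genes at 200 µM and 0% at 50 µM, and none had an unadjusted p under 0.05; at 200 µM Mafg was 0.73 on day 1 and 0.91 on day 2.

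**Figure D3:**
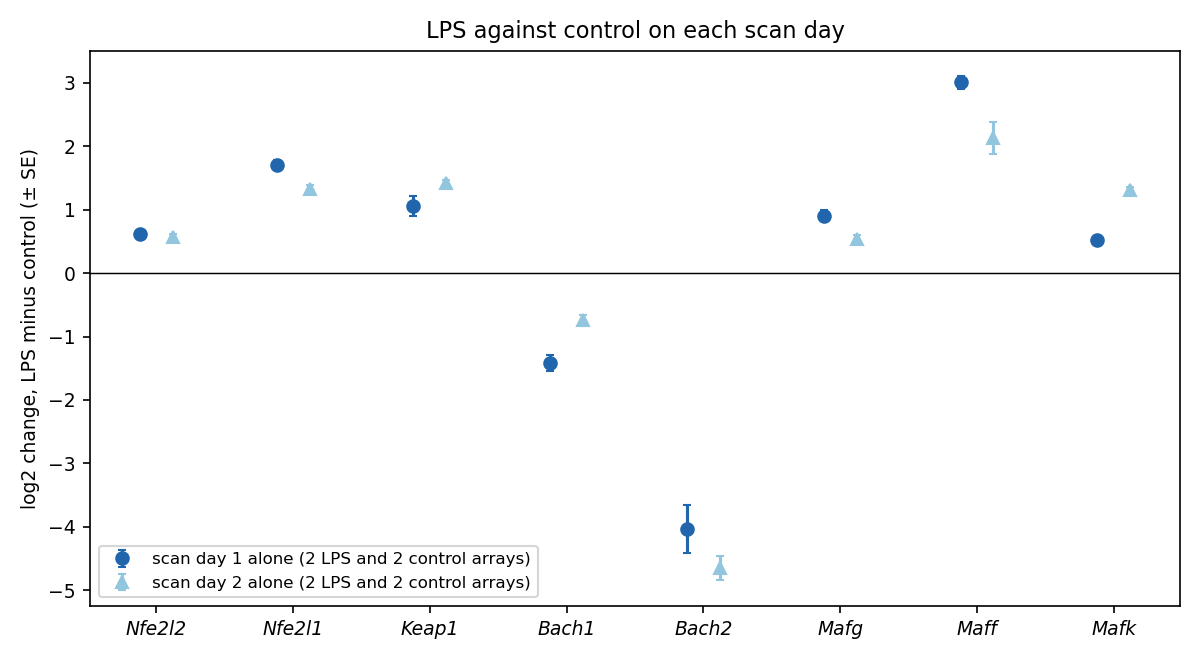
Log2 change with LPS against control (y axis, with SE bars) for the 8 genes, computed within scan day 1 and within scan day 2 from 2 LPS and 2 control arrays each. Mafk is higher and Bach1 less reduced on day 2, while Maff, Nfe2l1 and Mafg are closer to 0 on day 2.

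**Figure D4:**
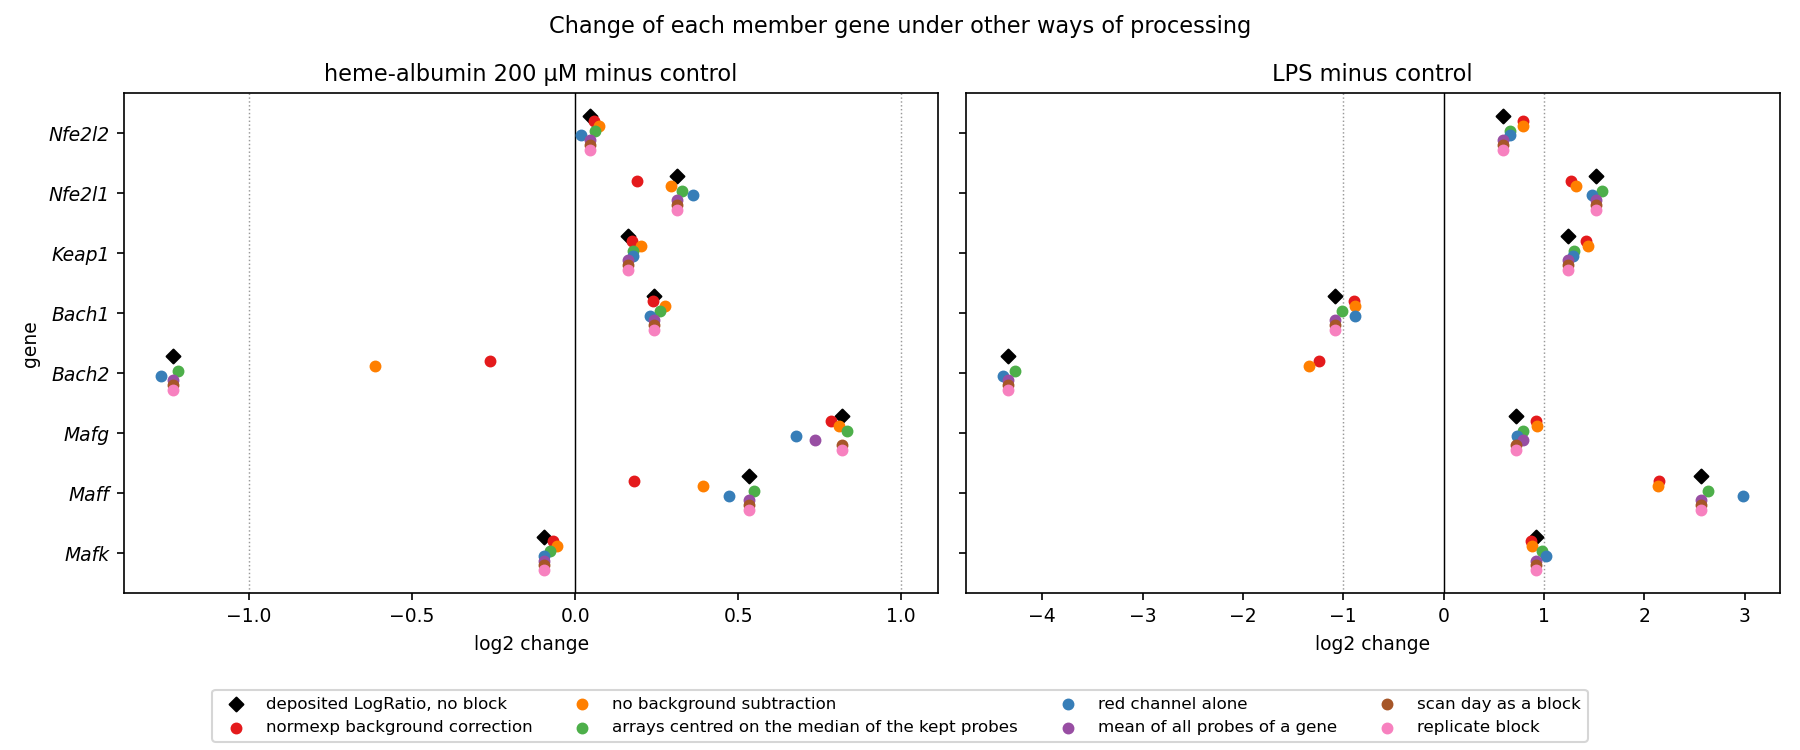
Log2 change of each gene (rows) under 8 ways of processing (colours), for heme-albumin 200 µM and LPS against control; dotted lines mark 2-fold. Bach2 moved most in both: with normexp it was -1.24 with LPS, against -4.34 as deposited, and -0.26 at heme-albumin 200 µM, against -1.23 as deposited; all points kept their side of 0 in these 2 comparisons.

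The genes these factors control were followed in a list of 31 antioxidant, glutathione, heme and iron genes known as NRF2 or BACH1 targets. This list was drawn up with earlier results of these data known, so its counts against all genes are a description. At heme-albumin 200 µM 20 of the 31 rose and none fell, against 2.05% of all genes called higher and 0.98% called lower, with a median change of 1.25. At 50 µM 8 rose and none fell, against 0.29% of all genes called higher, with a median of 0.66; with LPS 7 rose and 3 fell, against 14% called higher and 16.7% called lower, with a median of 0.26. At heme-albumin 200 µM Hmox1 (heme oxygenase 1, which opens the heme ring) rose by 3.70 ± 0.17, Gclm (a subunit of the enzyme that starts glutathione synthesis) by 2.38 ± 0.18, Gsta3 (a glutathione transferase) by 3.38 ± 0.32 and Slc40a1 (ferroportin, the iron exporter) by 4.19 ± 0.30, the last fitted on 3 of 4 treated arrays because 1 spot was an outlier. Slc7a11, the cystine importer, was called higher at heme-albumin 200 µM and with LPS, but since only 1 of 4 control arrays had it above background, its fold is left out. With LPS Hmox1 rose by 2.65 ± 0.18 and Prdx1, a peroxiredoxin, by 1.92 ± 0.15, each fitted on 3 of 4 LPS arrays, whereas Slc40a1 fell by 2.36 ± 0.28 and Ephx1, an epoxide hydrolase, fell by 1.60 ± 0.11.

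**Figure D5:**
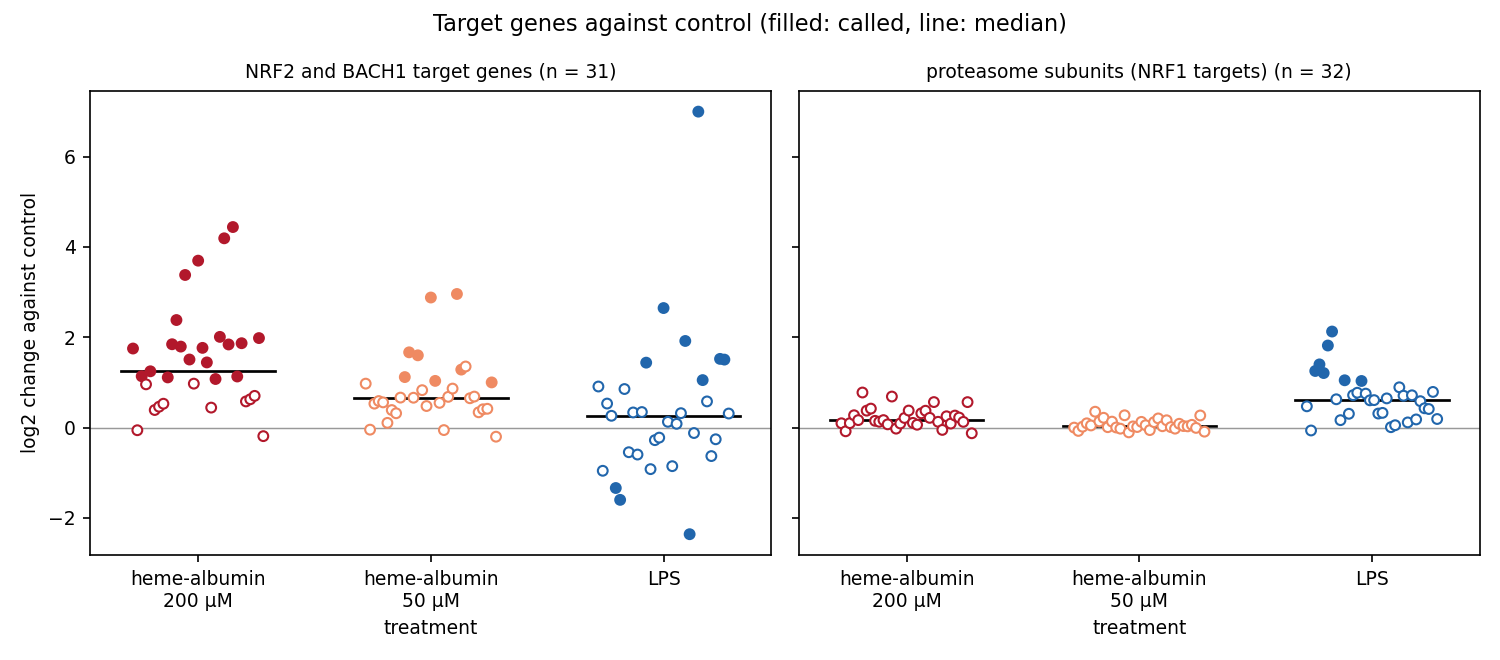
Log2 change against control of 31 NRF2 and BACH1 target genes and of 32 proteasome subunits (points, filled where called), for each treatment, with the median as a line; the Slc7a11 points are fitted against a control mostly below background. The target medians are 1.25, 0.66 and 0.26 at heme-albumin 200 µM, heme-albumin 50 µM and LPS, and the proteasome medians 0.17, 0.03 and 0.62.

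Of 32 proteasome subunits, the best-known NRF1 targets, 7 rose with LPS, none fell and 25 were not called, against 14% of all genes called higher and 16.7% lower; 28 had an unadjusted p under 0.05, against 79.9% of all genes. Their median change was 0.62, against -0.09 for all genes. The largest rises were in alpha-ring subunits: Psma6 rose by 2.13 ± 0.10, Psma5 by 1.82 ± 0.05, Psma3 by 1.40 ± 0.04, Psma2 by 1.25 ± 0.06 and Psma4 by 1.21 ± 0.06. With heme-albumin none of the 32 was called by limma, against 3.03% of all genes at 200 µM and 0.368% at 50 µM. An unadjusted p under 0.05 was reached by 21 at 200 µM and 6 at 50 µM (33.7% and 13.6% of all genes reached it). Medians were 0.17 at 200 µM and 0.03 at 50 µM. Psma5 was higher by 0.78 ± 0.05 at 200 µM (limma adjusted p = 4.5e-08) without reaching 2-fold. Of 8 genes that process NRF1 (its glycan removal, extraction, cleavage and turnover), none was called with heme-albumin by limma, against the same 3.03% and 0.368%. Their unadjusted p was under 0.05 for 4 at 200 µM and 0 at 50 µM, against 33.7% and 13.6% of all genes. With LPS 1 of the 8 was called, the endoplasmic reticulum ligase Syvn1, with a rise of 1.05 ± 0.05, against 30.7% of all genes called.

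Of 14 genes for KEAP1, CUL3 and other NRF2 turnover, Sqstm1 alone was called at heme-albumin 200 µM, against 3.03% of all genes. It rose by 1.13 ± 0.11, and 2.05% of all genes were called higher. At 200 µM 3 of the 14 had an unadjusted p under 0.05 by limma, against 33.7% of all genes. None was called by limma at 50 µM, against 0.368% of all genes, and 2 had an unadjusted p under 0.05, against 13.6%. Sqstm1 encodes p62, an autophagy receptor that binds KEAP1, and it also stands in the target list. With LPS 3 of the 14 rose (Trim21 by 2.54 ± 0.18, Sqstm1 by 1.05 ± 0.11 and Syvn1, also in the NRF1 list) and 1 fell, Btrc (an F-box protein that binds phosphorylated NRF2), by 1.47 ± 0.12, against 14% of all genes called higher and 16.7% called lower. Of 6 genes listed for BACH1 turnover, only Hmox1 was called against control, and none of those for BACH1 export or degradation was. Hmox1, which also stands in the target list, encodes an enzyme of heme breakdown. It rose with each treatment, against 3.03%, 0.368% and 30.7% of all genes called at heme-albumin 200 µM, at 50 µM and with LPS. Fbxo22, the F-box protein that marks heme-bound BACH1, was higher by 0.58 ± 0.10 at heme-albumin 200 µM (limma adjusted p = 0.00064) and by 0.53 ± 0.10 with LPS (limma adjusted p = 0.00017), both under 2-fold. Of 6 cofactors of NRF2, none was called with LPS, against 30.7% of all genes. Their changes with LPS ran from -0.90 to 0.44, with a median of 0.19. The lowest was Rxra, a nuclear receptor that can bind NRF2, at -0.90 ± 0.18 (limma adjusted p = 0.00026).

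Nfe2 and Maf are relatives of the 8 genes outside the small Mafs. With LPS Nfe2 (the erythroid CNC factor, above background on 3 of 4 LPS arrays) fell by 1.94 ± 0.17, and Maf (c-Maf, a driver of Il10) rose by 1.10 ± 0.12. At heme-albumin 200 µM neither was called: Maf was lower than control (log2 difference -0.99 ± 0.12, limma adjusted p = 3.8e-05), and Nfe2 was higher by 0.70 ± 0.17 (limma adjusted p = 0.0093).

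The genes whose pattern over the 16 arrays was most like that of each member were ranked by Pearson r, as a description: the arrays fall into 4 groups and share 1 kind of reference RNA. Among them were Pik3r6, Ier3 and Tnfrsf1b for Nfe2l2 (r = 0.99 each), Plpp1, Vasp and Acsl1 for Nfe2l1 (0.99 each), and Aig1 and Mcur1 for Keap1 (0.991 and 0.985). Bach1 was closest to Nap1l1, Pkmyt1 and Csrp2 (0.981, 0.976 and 0.975), and the genes most like Bach2 included Xrcc3 and Ubn1 (0.992 and 0.99). The r values of Bach2 take in its LPS arrays, where its probe was not above background. Mafg was closest to Arhgdib, Dnmt3l and Col18a1 (0.975, 0.973 and 0.956), Maff to Wnt6, Agrn and Ptpn23 (0.983, 0.982 and 0.981), and Mafk to B3gnt2, Katna1 and Sgcb (0.996, 0.995 and 0.995).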

How the data were processed

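Total RNA of 16 cultures was hybridised to 2-colour Agilent arrays of 44397 spots. Intensities and the log10 ratio (LogRatio, red sample over green reference) were deposited by the authors as Agilent Feature Extraction 10.7.3.1 output, background-subtracted and dye-normalised by linear and lowess fits, per the file headers. The deposited value table held the same log10 ratios. Here LogRatio was turned to log2, with no further scaling; control and outlier spots were left out and spots of a probe averaged. Probes were named through RefSeq accessions (27234 of 39429 probes), kept when the red signal passed the scanner software's background test in all 4 replicates of some group (21458), and the brightest stood for its gene (12759 genes). limma 3.58.1 (R 4.3.3) was fitted to all 16 arrays with a mean per group, and p adjusted by Benjamini-Hochberg over all genes; the fit was tested on simulated data. Intervals are 95% limits of that fit, which shares the spread of a gene across all groups. The number of arrays limits precision.

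The genes and lists were chosen with earlier results of these data known. Named genes were all members, up to 5 per list by size of change at heme-albumin 200 µM or with LPS, and the 3 most alike per member. A few genes that these rules name are not reported here. The labels call the replicates independent biological ones. Same-letter arrays shared a slide and a title tag; their deviations correlated above 0.1 in every pair for 5 of 6 comparisons (0.10 to 0.50), but not for LPS against control (0.096 to 0.11). Alternatives were a replicate block, scan day, background, scaling, red channel alone, dim filter, probe choice, an unmoderated model and leaving out replicates.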

Additional observations from a re-analysis of the deposited data

Results flagged for a closer look

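Within groups of 4 arrays, 3 of 40 sets of values of the member probes had 1 array far from the other 3 by Dixon's test at the 95% level; chance alone gives about 1 in 20. Nfe2l1 at heme-albumin 200 µM had replicate b at -0.118, below the other 3 arrays. Bach2 at heme-albumin 50 µM had replicate a at -0.607, the lowest of its group. Mafk at heme-albumin 50 µM had replicate a at 0.0753, above the other 3.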

How the results depend on the processing

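Of 48 results (8 genes in 6 comparisons), each under 33 alternatives, 18 changed a call or a sign under at least 1. The number of genes called over the array was 386 at heme-albumin 200 µM against control, 151 with normexp and 229 without background subtraction; at 50 µM 47, against 19 and 29; and between the doses 106, against 31 and 70. With every probe fitted on its own the counts were 6012 for LPS against control, 6056 for heme-albumin 200 µM against LPS and 6015 for 50 µM against LPS, since more features were tested. Leaving out a replicate gave 328 to 390, 35 to 47, 3761 to 4062, 78 to 120, 3721 to 4024 and 3751 to 4039 calls in the 6 comparisons. With the replicate block the counts were 393, 54, 3922, 121, 3874 and 3918, and it changed no call of the 8 genes. The red channel alone gave 34 higher and 4 lower calls at 50 µM, against 37 and 10. Centring arrays on their median over all probes changed nothing, as that median was already 0.

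Besides the values given for Bach1, Bach2 and Mafk, the call of Bach1 with LPS was lost with normexp (-0.89) and without background subtraction or in red alone (-0.88 in both), and Mafk with LPS gained one in red alone (1.02). Against LPS at heme-albumin 200 µM, calls were lost for Keap1 (-0.88) and Mafk (-0.62) on day 1, Bach1 (0.93) on day 2, Bach2 with normexp (0.98) and without subtraction (0.73), and Mafk there (-0.93 in both). At 50 µM they were lost for Keap1 (-0.93) on day 1, Bach1 on day 2 (0.83) and with normexp (0.997), and Bach2 with normexp (0.98), and gained for Mafk on day 2 (-1.39), in red alone (-1.15) and centred on kept probes (-1.05, added after the data were seen).

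Signs turned in 21 cases, none with an adjusted p under 0.05. At 50 µM against control these were Nfe2l2 in red alone (-0.0057) and Maff on day 1 (-0.091). Between the doses they were Nfe2l2 with normexp (-0.015) and without subtraction (-0.0061; -0.012 to 0.032 leaving out replicates), Bach2 with normexp (0.0022), and Mafk with normexp (0.030), without subtraction (0.020) and in red alone (0.029; -0.035 to 0.0028 leaving out replicates). Mafg against LPS turned at 200 µM on day 1 (-0.18), with normexp (-0.14), without subtraction (-0.12), in red alone (-0.056), as a mean of probes (-0.054) and leaving out replicates (-0.0084 to 0.20), and at 50 µM on day 2 (0.038). The cause was not tested. Apart from the 2-fold rule, the side of the adjusted p changed for 9 of the 48 results under at least 1 alternative. Besides those given above for Nfe2l1, Bach2 and Mafg, Maff at 200 µM passed without LPS replicate d (0.53), Bach2 at 50 µM without subtraction (-0.30), Bach2 between the doses under 5 alternatives (-0.73 to -0.31) and Mafg between the doses on day 2 (0.33). The dim signal of Bach2 limits its values most.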
